A study of Homo sapiens with 8 samples.

Results

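H9 and H1, established lines of human embryonic stem cells that come from separate embryos, were compared in the undifferentiated state, each on 2 Affymetrix Human Genome U133 Plus 2.0 arrays. These 4 of the 8 arrays of the study are the ones labelled undifferentiated, and no embryoid body array enters. Both lines were grown in mTeSR1, a defined medium for pluripotent cells, with no other agent named for undifferentiated cultures, and total RNA was taken with an RNeasy kit. The labels call the arrays biological replicates without saying which cultures they came from, so the p-values measure the spread between these samples only. Every autosomal gene with a probe set annotated to a single symbol was considered, 18987 genes in all, and 12769 of them were bright enough to be tested. In a check of identity 0 of the 4 undifferentiated arrays went against their labels, against 2 of all 8.

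Human embryonic stem cells hold a primed pluripotent state, kept by the transcription factors POU5F1, SOX2 and NANOG together with activin or NODAL signalling and fibroblast growth factor. Lines from different embryos share that core, yet differ in inherited DNA variants and in marks gained in culture, above all DNA methylation at gene promoters and at imprinted genes, which are read from only one parental copy. They also differ in how readily they take one fate or another, and small groups of cells that have begun to differentiate can sit within a culture. In bulk RNA, fewer cells of a type and less RNA per cell cannot be told apart.

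The 4 arrays fell into their lines. Across the 12769 genes the correlation of log2 values was 0.991 to 0.992 within a line and 0.973 to 0.976 between lines, a description across genes, which are not replicates. Stem cell markers were bright in both lines: 10 of 12 defining markers were tested, and all 10 were above the array median on all 4 arrays. POU5F1 and TDGF1 were not among them, since no probe set with their symbol alone was tested. Median intensities over all probe sets were 73.0 and 74.7 (H1) and 68.7 and 70.6 (H9) on the 4 arrays, and GAPDH control probes, which compare the ends of a message as a sign of RNA quality, gave a 3'/5' ratio of 0.936 ± 0.0030 in H1 and 0.869 ± 0.029 in H9 (SD, n = 2).

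Most genes differed little. The median absolute difference was 0.19 on the scale of log2(intensity + 16), used throughout, and 5th and 95th percentiles of the difference, H9 minus H1, were -0.60 and 0.57. Of the 12769 genes, 2816 (22.1%) were called different at a limma adjusted p under 0.05, 1500 (11.7%) higher in H9 and 1316 (10.3%) lower, and 1551 of these calls were for differences under 0.5. A difference of at least 1 was called for 114 genes higher in H9 (0.893%) and 215 lower (1.68%), or 2.58% in either direction. At 2 or more the counts were 8 and 34, and at 3 or more 1 and 13, so the large differences were mostly genes lower in H9. The H9 and H1 arrays did not overlap for 7889 genes (61.8%). Counts of small differences depend on each array: without H1 replicate 1 there were 969 higher and 781 lower, without H1 replicate 2 there were 870 and 728, and without H9 replicate 1 there were 949 higher. With each array centred on its own median the split became 2091 higher and 947 lower, or 68.8% of calls higher against 53.3%, while the median difference over all genes went from 0.01 to 0.08.

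**Figure D1:**
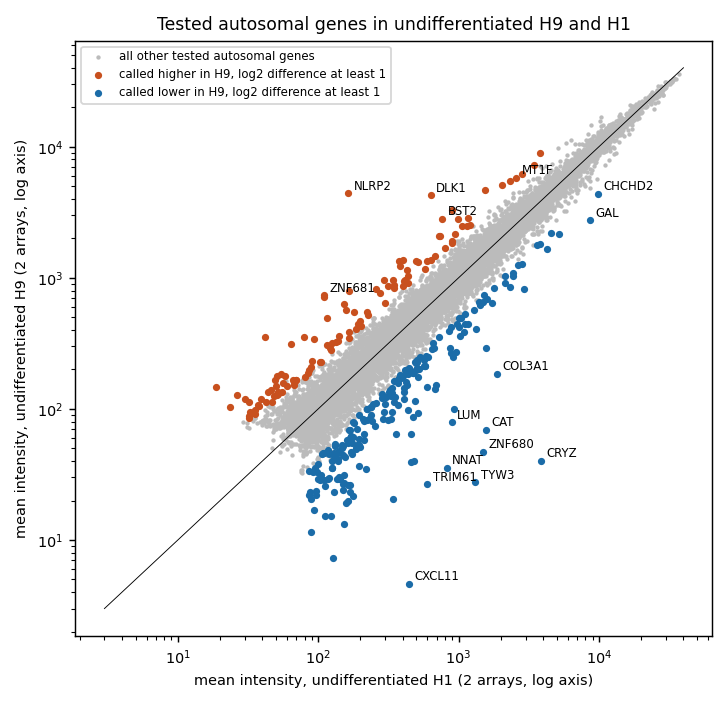
Mean intensity of each of the 12769 tested autosomal genes in undifferentiated H1 (horizontal, log axis) and undifferentiated H9 (vertical, log axis), 2 arrays per line. Orange points are the 114 genes called higher in H9 and blue points the 215 called lower, each by at least 1 on the log2 scale; the line marks equal intensity, and the blue points reach farther from it than the orange ones.

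A first group of genes had a clear signal in H1 and none above the middle of the array in H9. A gene is called dim in a line when it was below the array median on both of its arrays, and its ratio is then a lower bound, the mean of the bright line over the array median, on the log2(value + 16) scale. Of 175 tested genes that were dim in H9 and above the median on both H1 arrays, 93 were called lower in H9. Their bounds ran from 1.20-fold to 44.99-fold. Over all genes 10.3% were called lower and 22.1% in either direction. CRYZ, which encodes a quinone oxidoreductase, read 3729 and 3949 on the H1 arrays and 50.1 and 30.1 on the H9 arrays. It was at least 44.99-fold lower in H9 (log2 difference -6.13 ± 0.17 (SE), limma adjusted p = 6.16e-08), the largest bound of all. TYW3, encoding an enzyme that modifies transfer RNA, lies next to it and read 1265 and 1373 in H1 and 14.98 and 40.3 in H9, at least 15.6-fold lower (adjusted p = 9.62e-06).

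ZNF680, a zinc finger gene, had 1525 and 1443 in H1 and 48.1 and 45.7 in H9, at least 17.5-fold lower (limma adjusted p = 6.16e-08). NNAT, the imprinted neuronatin gene, read 785 and 865 against 43.7 and 27.4, at least 9.80-fold. That neither gene left any overlap between the lines follows from how such genes were chosen. CAT encodes catalase, which breaks down hydrogen peroxide. Its intensities of 1517 and 1607 in H1 stood against 92.8 and 45.1 in H9, where replicate 1 was still above its array median, and the log2 difference was -4.27 ± 0.24 (adjusted p = 1.36e-05).

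The other genes of this kind with the largest bounds were TRIM61 (at least 7.19-fold), SLC12A1, a kidney salt transporter gene (5.68-fold), NR2F1, a nuclear receptor of the developing brain and neural crest (5.57-fold), the collagen gene COL8A1 (5.51-fold), CXCL11, an interferon-induced chemokine (5.26-fold), EN2, a homeobox gene of the midbrain (4.10-fold), the mesenchymal homeobox gene PRRX1 (2.75-fold) and the synaptic adhesion gene LRFN5 (2.66-fold). CXCL11 read 518 and 364 in H1 and 0.885 and 8.33 in H9, values so low in H9 that their order means nothing. The call of PRRX1 was lost without H1 replicate 2, where the difference was -2.30. The probe sets of TRIM61, ZNF680, CXCL11 and NNAT can also bind related transcripts.

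The promoters of 4 genes are shown because their differences were among the largest in each direction. Each is the RefSeq window in build GRCh38.p14, from 250 bases before to 50 after the start of the gene, 5' to 3' on the strand of the gene, with every CG, the pair of bases at which DNA is methylated, in capitals. No sequence was read in these lines and no methylation was measured here.
CRYZ: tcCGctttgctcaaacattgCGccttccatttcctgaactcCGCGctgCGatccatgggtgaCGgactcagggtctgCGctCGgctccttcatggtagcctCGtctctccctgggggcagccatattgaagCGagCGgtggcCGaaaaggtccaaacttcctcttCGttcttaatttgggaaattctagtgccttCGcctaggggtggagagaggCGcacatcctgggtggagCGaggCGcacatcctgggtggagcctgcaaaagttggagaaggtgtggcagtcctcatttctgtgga
ZNF680: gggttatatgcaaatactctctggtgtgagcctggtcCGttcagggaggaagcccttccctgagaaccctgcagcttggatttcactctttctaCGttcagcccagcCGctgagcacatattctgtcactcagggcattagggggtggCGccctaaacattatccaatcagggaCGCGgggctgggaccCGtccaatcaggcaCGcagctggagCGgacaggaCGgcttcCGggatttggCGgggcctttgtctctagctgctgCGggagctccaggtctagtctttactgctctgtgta
CAT: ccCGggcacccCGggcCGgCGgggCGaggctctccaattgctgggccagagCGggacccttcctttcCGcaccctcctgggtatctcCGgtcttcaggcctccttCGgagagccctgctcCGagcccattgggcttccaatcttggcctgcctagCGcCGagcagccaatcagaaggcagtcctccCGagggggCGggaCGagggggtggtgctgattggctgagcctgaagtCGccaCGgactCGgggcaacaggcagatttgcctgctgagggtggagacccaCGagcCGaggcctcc
NLRP2: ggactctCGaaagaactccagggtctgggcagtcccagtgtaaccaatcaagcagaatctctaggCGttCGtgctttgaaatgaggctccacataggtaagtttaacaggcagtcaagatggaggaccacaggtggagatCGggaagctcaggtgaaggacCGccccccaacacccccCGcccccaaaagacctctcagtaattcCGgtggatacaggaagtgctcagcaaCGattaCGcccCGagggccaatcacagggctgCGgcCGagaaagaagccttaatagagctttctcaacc

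CRYZ lies on the minus strand, and its window is chr1:74733001-74733300. The start of TYW3, on the opposite strand, falls inside that window, so the largest pair of differences shares 1 stretch of promoter. The window of ZNF680 is chr7:64563022-64563321 on the minus strand, that of CAT chr11:34438684-34438983 on the plus strand and that of NLRP2 chr19:54965034-54965333 on the plus strand. They hold 17, 13, 20 and 12 CG pairs, where the median of 35116 promoter windows is 14. As many or more are found in 46% of windows for CRYZ, 51.7% for ZNF680, 41.2% for CAT and 53.1% for NLRP2, so all 4 lie near the middle of the table by this count. TYW3 and NNAT have no window of their own in the table.

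Genes whose promoter methylation is known to vary between pluripotent lines were listed for this comparison, with CRYZ, TYW3 and ZNF680 already known to differ in these data, so the list is not independent evidence. Of 16 tested members 8 were lower in H9 and 1 was higher (56.2% called, against 22.1% of all genes). The median was -0.58 against 0.01 over all genes. Apart from CRYZ, TYW3, ZNF680 and CAT, the lower members included FZD10, a receptor for WNT (-1.20 ± 0.16), QNG1 (-0.96 ± 0.10), an enzyme of queuosine salvage, TCERG1L (-0.67 ± 0.13) and the zinc finger gene ZNF300 (-0.57 ± 0.11). TMEM132D, another gene of the list, was at -0.052 and TRIM4 at 0.034, neither called.

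Called genes with the reverse pattern were fewer and dimmer, although about as many were tested, 170 against 175. Of these 170 genes, dim in H1 and above the median on both H9 arrays, 37 were called higher in H9. Their bounds ran from 1.13-fold to 4.12-fold. Over all genes 11.7% were called higher and 22.1% in either direction. ZNF717, a zinc finger gene, read 35.8 and 48.3 in H1 and 362 and 346 in H9 (at least 4.12-fold, limma adjusted p = 4.16e-05). The antisense RNA MAGI2-AS3 read 59.5 and 68.1 against 314 and 316 (at least 3.68-fold). HES5, a target of Notch in neural progenitors, was at least 2.22-fold higher and LGALS14, a placental galectin gene, at least 2.01-fold.

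NLRP2 showed the largest difference in favour of H9. It encodes a protein of the NLR family that acts in oocytes and early embryos and is linked to imprinting. Its intensities were 160.2 and 166 in H1 and 4348 and 4457 in H9, so that each H9 value exceeded each H1 value by more than the whole spread of either line, and the log2 difference was 4.62 ± 0.090 (limma adjusted p = 3.54e-09). DLK1, an imprinted gene for a Notch-like ligand, rose from 688 and 577 in H1 to 4652 and 3865 in H9 (2.72 ± 0.11, limma adjusted p = 1.83e-06). The probe sets of NLRP2 and DLK1 can also bind related transcripts.

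Other large differences in this direction were seen for ZNF681, a zinc finger gene of chromosome 19 (2.60 ± 0.17), TSPYL5, which regulates p53 turnover (2.54 ± 0.15), HLA-DQB1, encoding a chain of class II antigen presenting molecules (2.15 ± 0.14), the tubulin pseudogene TUBBP5 (1.97 ± 0.18), the secreted phospholipase gene PLA2G2A (1.95 ± 0.22), NBPF3 (1.93 ± 0.16), SMIM3 (1.85 ± 0.13), LINC00960 (1.81 ± 0.10) and the calcium channel gene TRPC4 (1.78 ± 0.23). ZNF681 read 91.5 and 128 in H1 and 748 and 725 in H9, and TSPYL5 121 and 100.1 against 708 and 726. In none of these genes did the arrays of the lines overlap, which was part of how they were chosen.

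**Figure D2:**
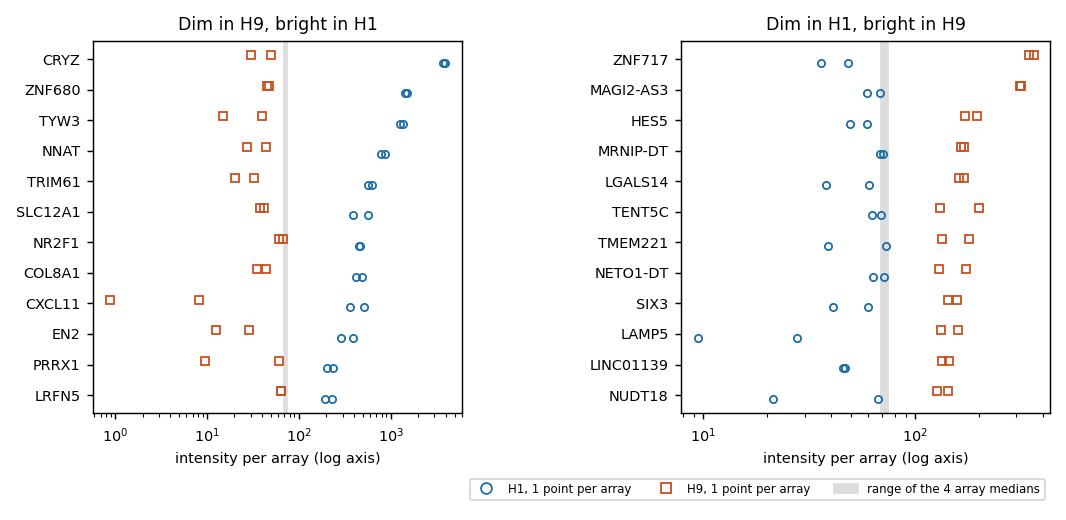
Intensity on each array (horizontal, log axis) of the 12 genes with the largest bounds in each direction among called genes that were below the array median on both arrays of one line and above it on both arrays of the other. Circles are H1 arrays, squares H9 arrays and the grey band the range of the 4 array medians, 68.7 to 74.7; on the left H1 reaches 3949 for CRYZ, while on the right no H9 array exceeds 362, the value of ZNF717.

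Of the core pluripotency list 25.9% of tested members were called, against 22.1% of all genes. SOX2 read 18375 and 19582 in H1 and 18393 and 16549 in H9 (-0.12 ± 0.068, limma adjusted p = 0.235), with overlapping arrays. NANOG read 9243 and 8885 against 8325 and 8031 (-0.15 ± 0.060, adjusted p = 0.108), and its arrays did not overlap, but the difference was not called. When all probe sets were fitted one by one, 1 of the 2 tested probe sets of NANOG was called lower in H9. The 27 tested members included 20 that were not called, among them the RNA-binding factor LIN28A (0.017), the surface protein gene PODXL (0.038), DPPA4 (0.035), ZFP42 (0.052) and the telomere protein gene TERF1 (0.02). The list had 1 member higher and 6 lower in H9, with a median of -0.04, which became 0.03 with arrays centred on their medians.

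Among the members that differed, GAL, which encodes the neuropeptide galanin, read 8183 and 9086 in H1 and 2716 and 2773 in H9, a difference of -1.65 ± 0.070 (limma adjusted p = 9.53e-07). GDF3, a ligand of the NODAL type, fell from 1080.4 and 1004 to 472 and 519.5 (-1.05 ± 0.10), SALL4, a zinc finger factor of stem cells, differed by -0.67 ± 0.077, and DPPA2, a chromatin-binding factor, by -0.67 ± 0.084. FOXD3, a forkhead factor of stem cells and neural crest, was higher in H9 (0.54 ± 0.10).

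The list on the naive state, the earlier form of pluripotency, had 4 of 15 tested members higher and 3 lower in H9. Called members made up 46.7%, against 22.1% of all genes. DPPA5 read 581 and 552 in H1 and 181 and 242 in H9 (-1.37 ± 0.16), and the growth factor gene FGF4 (-1.13 ± 0.17) and the nuclear receptor gene NR5A2 (-1.09 ± 0.16) were also lower. The higher members were led by genes better known from the primed or neural-leaning state: OTX2, a homeobox factor of the epiblast and forebrain (0.84 ± 0.069), the neural factor ZIC2 (0.59 ± 0.066) and DUSP6, a phosphatase that dampens ERK (0.66 ± 0.067). The other higher member, the surface protein gene SUSD2, differed by 0.58, a call lost without H1 replicate 1 (0.53), H1 replicate 2 (0.64), H9 replicate 1 (0.50) or H9 replicate 2 (0.67). OTX2 went from 2137 and 2173 to 4003 and 3728.

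NODAL and INHBA, ligand genes of NODAL and activin signalling, were lower in H9. In their list 56.2% of tested members were called, against 22.1% of all genes. NODAL read 1226 and 1106 in H1 and 386 and 501 in H9 (-1.37 ± 0.13, limma adjusted p = 1.49e-04). INHBA, the activin A subunit, read 192 and 196 against 38.7 and 34.4, was dim in H9 and at least 2.45-fold lower. LEFTY1, a NODAL target that blocks it (-0.59 ± 0.11), and the inhibitory SMAD7 (-0.62 ± 0.10) were lower as well. The receptor gene ACVR1B was higher in H9 (0.57 ± 0.088). Of 16 tested members 6 were lower and 3 higher, with a median of -0.15; only 1 was higher without H1 replicate 2 or without H9 replicate 2.

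The FGF and ERK list held 23 tested genes, 3 higher and 7 lower in H9 (43.5% called, against 22.1% of all genes), with a median of -0.09. DUSP6 went from 4411 and 4852 in H1 to 7394 and 7251 in H9, while DUSP5, a nuclear phosphatase of ERK, went from 1262 and 1214 to 757 and 736 (-0.72 ± 0.088). IL17RD, a feedback inhibitor of FGF receptors, was lower by -0.60 ± 0.066 and the receptor gene FGFR3 higher by 0.76 ± 0.11. The 7 lower calls became 3 without H1 replicate 1, 4 without H1 replicate 2 and 3 without H9 replicate 1.

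Genes of the WNT list moved in both directions, 4 of 24 higher and 5 lower (37.5% called, against 22.1% of all genes). FZD2 was higher in H9, at 1932 and 1906 against 958 and 829 in H1 (1.09 ± 0.091), and FZD10 was lower, at 116 and 131 against 293 and 319 (-1.20 ± 0.16). RSPO3, which boosts WNT signals (1.01 ± 0.15), and the receptor ROR1 (0.54 ± 0.070) were higher. The ligand WNT5A (-0.99 ± 0.15), the transcription factor LEF1 (-1.10 ± 0.16) and the feedback gene AXIN2 (-0.55 ± 0.083) were lower. The median was -0.02, and 0.05 with arrays centred on their medians. With the mean of all probe sets of the gene the difference of ROR1 was 0.24 and not called.

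In the BMP list 4 of 17 members were higher and 2 lower (35.3% called, against 22.1% of all genes). ID3, a target of BMP, read 8411 and 8424 in H1 and 5592 and 5688 in H9 (-0.58 ± 0.058), whereas its relative ID2 was higher (0.33 ± 0.062). The secreted antagonist GREM1 was lower (-0.85 ± 0.15) and TWSG1, a BMP-binding protein, higher (0.48 ± 0.068; 0.18 and not called with the mean of its probe sets). Without H1 replicate 1 the higher calls were 2, and without H9 replicate 2 the lower calls were 4.

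**Figure D3:**
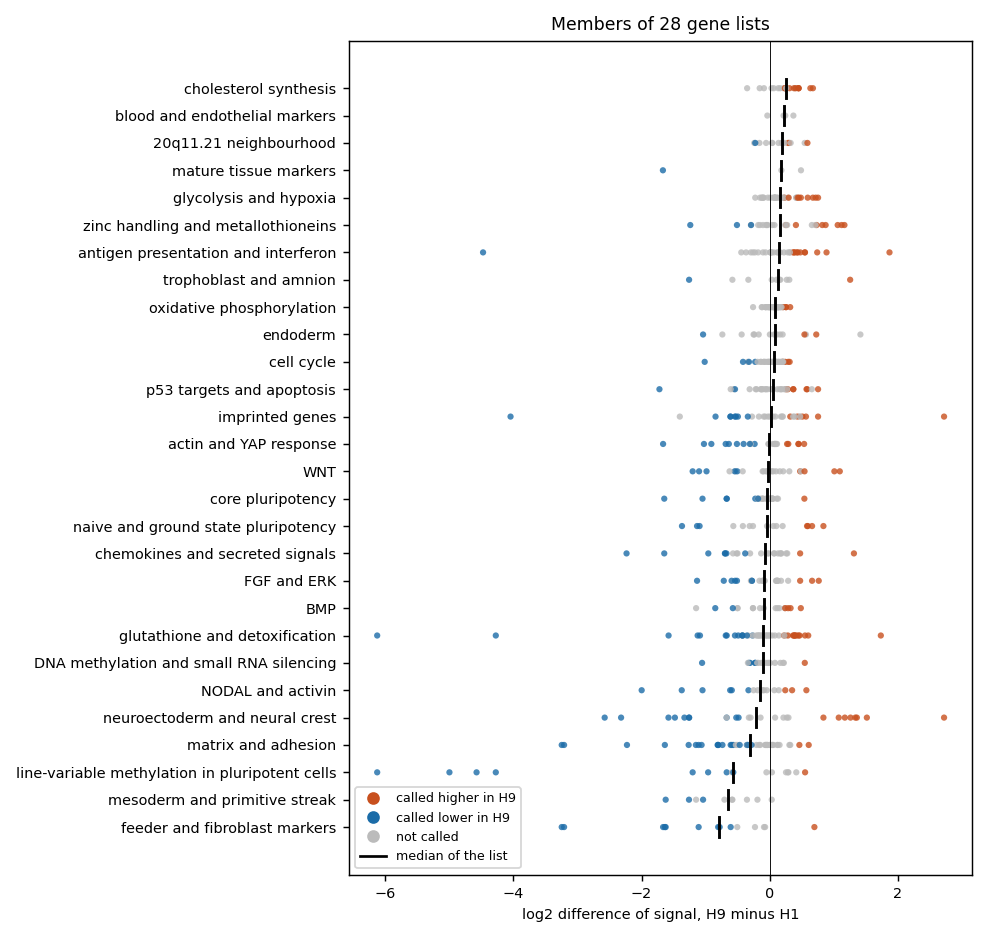
Difference of each tested member (log2, H9 minus H1) of 28 gene lists, ordered by their medians. Orange points are members called higher in H9, blue points members called lower and grey points members not called; a black bar marks the median of a list, which runs from -0.79 for feeder and fibroblast markers to 0.25 for cholesterol synthesis.

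Neural genes differed more often than any other list fixed for early differentiation: 18 of 26 tested were called (69.2%, against 22.1% of all genes), 8 higher and 10 lower in H9. Several of the higher ones are known from the anterior neural plate. PAX6, the eye and forebrain factor, read 89.3 and 82.6 in H1 and 201 and 196 in H9 (1.08 ± 0.20, limma adjusted p = 0.00464). The forebrain homeobox gene LHX2 read 76.5 and 156 against 326 and 290.2 (1.36 ± 0.27), and SIX3 was at least 1.84-fold higher. STMN2, a tubulin regulator of neurons, went from 396 and 293 to 813 and 864 (1.26 ± 0.15).

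The lower ones included genes of the neural plate border and neural crest. NR2F1 read 467 and 454 in H1 and 67.3 and 60.8 in H9 (-2.58 ± 0.17), and the border factors MSX1 (-1.48 ± 0.20) and PAX3 (-1.26 ± 0.22) were lower. TFAP2A, also a gene of amnion and surface ectoderm, was dim in H9 and at least 2.05-fold lower, and TFAP2B differed by -1.58 ± 0.31. ZIC1 went from 504 and 532 to 111 and 73.8 (-2.32 ± 0.19), a call that averaging its probe sets removed, at -0.98 (adjusted p = 0.0501). POU3F2 (-1.33 ± 0.25) and NES, the neural progenitor filament gene (-0.49 ± 0.095), were lower too. HESX1, a forebrain factor of the anterior neural plate, was also lower (-0.52 ± 0.15), a call lost without H1 replicate 1 (-0.58), H1 replicate 2 (-0.47), H9 replicate 1 (-0.48) or H9 replicate 2 (-0.56). The call of SIX3 was lost without probe sets of the cross-binding types, at 1.14.

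**Figure D4:**
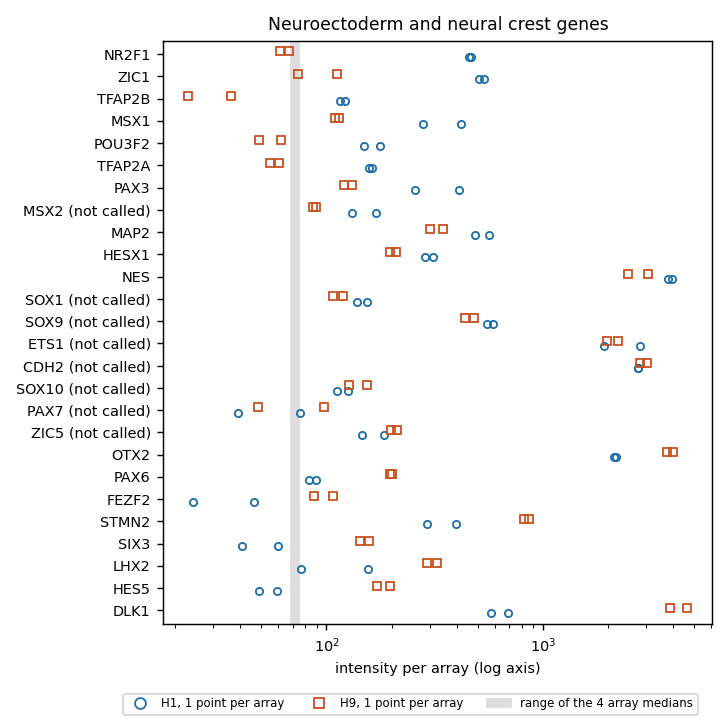
Intensity on each array (horizontal, log axis) of the 26 tested genes of the neuroectoderm and neural crest list, ordered by their difference from lower in H9 (top) to higher in H9 (bottom). Circles are H1 arrays, squares H9 arrays and the grey band the range of the 4 array medians, 68.7 to 74.7; names marked as not called did not pass the test, and many members lie within a few fold of the band.

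Of 16 endoderm genes 2 were higher and 1 lower (18.8% called, against 22.1% of all genes). The lower one was EOMES, a factor of primitive streak and endoderm, at 510.1 and 557 in H1 and 254 and 248 in H9 (-1.04 ± 0.13). CLDN6, a tight junction gene of early epithelium, was higher (0.54 ± 0.070). APOA1 was the other higher call, and was lost in each of the 4 fits that leave out an array, with differences from 0.67 to 0.78. The early endoderm factors GATA6 (85.98 and 109.9 in H1, 79.8 and 118 in H9) and SOX17 (74.7 and 85.8 against 104 and 74.4) overlapped between the lines.

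In the mesoderm and primitive streak list 3 of 10 tested genes were lower and 0 higher, with a median of -0.65; without H9 replicate 2, 6 were lower. TWIST1, a factor of mesenchyme, read 194 and 179 in H1 and 39.4 and 61.8 in H9 (at least 2.36-fold), and SNAI2, which drives the epithelial to mesenchymal switch, read 396 and 272 against 145 and 112 (-1.26 ± 0.21). TBXT differed by -0.36, which was not called. Among 10 trophoblast and amnion genes GABRP, a receptor subunit of amnion, was higher (1.25 ± 0.16) and TFAP2A lower. The share called was 30% in the mesoderm and primitive streak list and 20% in the trophoblast list, against 22.1% of all genes.

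Of 42 matrix and adhesion genes tested, 19 were lower in H9, 2 were higher and 21 were not called, where 10.3% of all genes were lower. The median was -0.31 against 0.01 over all genes. LUM, the matrix proteoglycan lumican, read 1004 and 777 in H1 and 88.3 and 70.2 in H9 (-3.25 ± 0.17, limma adjusted p = 4.29e-06). The fibrillar collagen COL3A1 read 2258 and 1512 against 185 and 186 (-3.21 ± 0.17), and H1 replicate 1 was above H1 replicate 2 for both. COL12A1 (-2.23 ± 0.22), COL5A2 (-1.15 ± 0.080), the matrix protein tenascin TNC (-1.27 ± 0.15), COL1A2 (-0.80 ± 0.069) and COL1A1 (-0.61 ± 0.060) were lower too. NID1, a basement membrane protein, was higher (0.61 ± 0.078).

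Markers of feeder cells and fibroblasts moved with the matrix genes, and 5 of the members just named, LUM, COL3A1, COL1A1, COL1A2 and, among mesoderm genes, TWIST1, are on both lists. Of 14 tested markers 9 were lower and 1 higher in H9 (71.4% called, against 22.1% of all genes), with a median of -0.79. Their summed intensity was 30617 and 29124 on the H1 arrays and 17429 and 16808 on the H9 arrays. VIM, the filament gene vimentin, which stem cells also express, read 9531 and 9827 in H1 and 6008 and 5260.4 in H9 (-0.78 ± 0.073). Others did not differ by the test: DCN, a defining marker of fibroblasts, read 116 and 145 against 64.2 and 116, PDGFRB 145 and 193 against 169 and 145, and FBLN1 1149 and 1051 against 1061 and 1028. TWIST2 was higher (0.70 ± 0.14). The part of other cell types in the matrix and mesoderm differences was not tested.

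Few genes of unrelated tissues could be read. Only 4 of 12 listed markers of blood and endothelium and 3 of 14 of mature tissues were tested, with 1 call in all, for the muscle myosin gene MYH2, at 355 and 313 in H1 and 109 and 80.7 in H9 (-1.67 ± 0.19). Summed intensities of the tested blood markers were 372 and 496 in H1 and 567 and 434 in H9.

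Contractile genes and targets of YAP, a factor that answers to cell shape and tension, were mixed. Of 23 tested 9 were lower and 5 higher (60.9% called, against 22.1% of all genes). The median was -0.01, and 0.06 with centred arrays. ACTA2, smooth muscle actin, which is also on the fibroblast list, read 1398 and 1261 in H1 and 434 and 384 in H9 (-1.66 ± 0.11), TAGLN, transgelin, 3632 and 3612 against 1634 and 1916 (-1.03 ± 0.084), and the YAP target CCN2 7185 and 6659 against 4298 and 4581 (-0.64 ± 0.068). The actin-binding gene CNN2 (0.45 ± 0.066) and the junction protein AJUBA (0.45 ± 0.072) were higher. ACTA2 was at -0.64 and not called with the mean of its probe sets, and TAGLN at -0.71 and not called without probe sets of the cross-binding types. Higher calls were 3 without H1 replicate 2.

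Outside these lists, IGFBP7, a secreted growth factor binding protein (-2.06 ± 0.18), the guidance gene SEMA3C (-1.99 ± 0.16), QPCT, an enzyme that modifies peptide ends (-3.04 ± 0.13), the phosphodiesterase gene PDE4B (-2.13 ± 0.15) and the histone gene H2AC6 (-2.36 ± 0.14) were among the 12 largest differences toward H1 among genes above the array median on at least 1 array of each line. UNC5C, a netrin receptor gene, was also among them, but its H9 arrays read 9.12 and 93.2. Its call was lost without H1 replicate 1 (-1.93) and without H1 replicate 2 (-2.13). It was also lost with quantile normalization, an added value of 1, no filter on dim genes and a filter on the mean. The limma fit without trend and robust settings did not call it either.

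Chemokines and other secreted signals were lower in 7 of 24 cases and higher in 2 (37.5% called, against 22.1% of all genes), with a median of -0.08. CXCL2, a chemokine for neutrophils, read 371 and 341 in H1 and 49.9 and 78.6 in H9 (-2.23 ± 0.22), and CXCL12, the ligand of CXCR4, 3546 and 3709 against 2193 and 2337 (-0.68 ± 0.069). CXCL5 went the other way, from 2085 and 2021 in H1 to 5177 and 5074 in H9 (1.31 ± 0.064, limma adjusted p = 2.45e-06), although its probe set can also bind related transcripts. Higher calls were 3 without H1 replicate 1, and 1 without H1 replicate 2 or H9 replicate 2.

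Imprinted genes differed in 14 of 30 tested cases (46.7%, against 22.1% of all genes), 6 higher and 8 lower in H9. Most differences were small beside those of NNAT and DLK1. Among paternally expressed genes, MEST, an enzyme gene of mesoderm, was lower, at 8877 and 8825 against 12693 and 13122 in H1 (-0.54 ± 0.057), as was INPP5F, a phosphoinositide phosphatase (-0.61 ± 0.059), while PEG10, a gene derived from a retroelement, was higher, at 5139 and 5577 against 3685 and 3827 (0.51 ± 0.068), and so was NDN, which restrains growth (0.43 ± 0.064). CDKN1C, a maternally expressed inhibitor of the cell cycle, was higher (0.75 ± 0.088; 0.37 and not called with the mean of its probe sets). TFPI2, a protease inhibitor gene that is imprinted in placenta, was lower (-0.85 ± 0.084). MEG3, the noncoding neighbour of DLK1 that is read from the other parental copy, read 48.9 and 107 in H1 and 108 and 107 in H9, and was not called. The lower calls were 5 without H1 replicate 1 or H1 replicate 2. Alleles were not measured.

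Of 34 antigen presentation and interferon genes tested, 11 were higher in H9, 1, CXCL11, was lower and 22 were not called, where 11.7% of all genes were higher. The median was 0.14 against 0.01 over all genes. BST2, the antiviral surface protein tetherin, read 840.5 and 686 in H1 and 2928 and 2707 in H9 (1.87 ± 0.10, limma adjusted p = 6.61e-06). TRIM22, an antiviral ubiquitin ligase, went from 2220.4 and 2314 to 3905 and 3693 (0.74 ± 0.068), and PSMB9, a subunit of the immunoproteasome, from 179.6 and 149 to 307 and 326 (0.89 ± 0.16). The class I genes HLA-B (0.55 ± 0.080), HLA-C (0.39 ± 0.059), HLA-F (0.55 ± 0.090) and HLA-G (0.43 ± 0.085) and the interferon-induced membrane proteins IFITM2 (0.48 ± 0.058) and IFITM3 (0.36 ± 0.060) were higher by less. HLA-E, another class I gene, read 1701 and 1699 in H1 and 1748 and 1713 in H9 (0.025) and was not called. B2M, the partner chain of class I molecules, differed by 0.11, not called. HLA genes vary in sequence between people, the class I genes named here were read by cross-binding probe sets, and whether the lines differ in a probe was not tested.

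Metallothioneins, small proteins that bind zinc and copper and are switched on by metal through MTF1, were higher in H9 together. Of 7 tested genes of the MT1 and MT2 group, taken from the zinc list after their values were seen, 6 were higher and 0 lower. Among all genes 11.7% were higher and 10.3% lower. MT2A read 5864 and 5839 in H1 and 11706 and 9816 in H9 (0.87 ± 0.082, limma adjusted p = 1.37e-04). MT1G went from 3362 and 3560.4 to 7684 and 6803 (1.06 ± 0.075) and MT1E from 2945 and 2699.8 to 6669 and 5674 (1.12 ± 0.086). In each of these the H9 replicates lay apart, replicate 1 above replicate 2, while the H1 replicates were close. MT1F, MT1H and MT1X differed by 1.17 ± 0.093, 0.82 ± 0.086 and 0.73 ± 0.10, and MT1M, at 58.96 and 86.3 in H1 and 112 and 133 in H9, was not called. The 6 genes were read by probe sets that can bind each other's transcripts, so they may not be 6 separate readings, and the 6 calls held with each array left out in turn.

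Promoters of 3 of these genes have a window in the RefSeq table, and are shown because the family moved together. Capitals mark cores of the metal response element, the site of MTF1, searched as TGCACNC and TGCGCNC on both strands, with overlapping matches merged.
MT2A: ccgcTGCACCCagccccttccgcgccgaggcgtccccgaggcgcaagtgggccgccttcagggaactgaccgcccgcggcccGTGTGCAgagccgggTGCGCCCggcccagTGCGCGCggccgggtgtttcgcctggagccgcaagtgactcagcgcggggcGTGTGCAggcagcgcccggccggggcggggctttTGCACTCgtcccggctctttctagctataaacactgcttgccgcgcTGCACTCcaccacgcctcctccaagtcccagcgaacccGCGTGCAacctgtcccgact
MT1H: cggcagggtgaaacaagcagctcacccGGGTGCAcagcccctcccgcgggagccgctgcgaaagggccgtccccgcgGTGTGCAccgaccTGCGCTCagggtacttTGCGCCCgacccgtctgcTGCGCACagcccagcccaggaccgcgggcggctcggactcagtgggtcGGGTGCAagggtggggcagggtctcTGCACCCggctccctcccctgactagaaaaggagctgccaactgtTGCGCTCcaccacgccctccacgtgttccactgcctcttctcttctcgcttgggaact
MT1X: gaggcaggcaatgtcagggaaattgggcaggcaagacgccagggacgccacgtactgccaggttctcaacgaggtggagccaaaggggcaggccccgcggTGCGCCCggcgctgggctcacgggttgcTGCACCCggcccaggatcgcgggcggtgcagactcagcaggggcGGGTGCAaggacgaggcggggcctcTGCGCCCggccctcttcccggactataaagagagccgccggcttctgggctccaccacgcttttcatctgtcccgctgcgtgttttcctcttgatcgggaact

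In build GRCh38.p14 these windows are chr16:56608334-56608633, chr16:56669564-56669863 and chr16:56682220-56682519, all on the plus strand. They hold 8, 8 and 4 such cores. Of all 35116 windows, 29.6% hold at least 1, 0.339% hold at least 4, and 0.0171% hold as many as MT2A. A match is a description of the letters and says nothing of binding in these cells.

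Over the whole zinc list, metallothioneins included, 8 of 24 tested genes were higher and 3 lower (45.8% called, against 22.1% of all genes). The median was 0.16. SLC39A8, which brings zinc and manganese into the cell, was lower in H9, at 2322 and 2032 against 5258 and 5047 in H1 (-1.24 ± 0.078, limma adjusted p = 1.21e-05), and the importers SLC39A7 (-0.51 ± 0.098) and SLC39A14 (-0.29 ± 0.056) were lower by less. The transporter SLC30A9 was higher (0.41 ± 0.069).

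**Figure D5:**
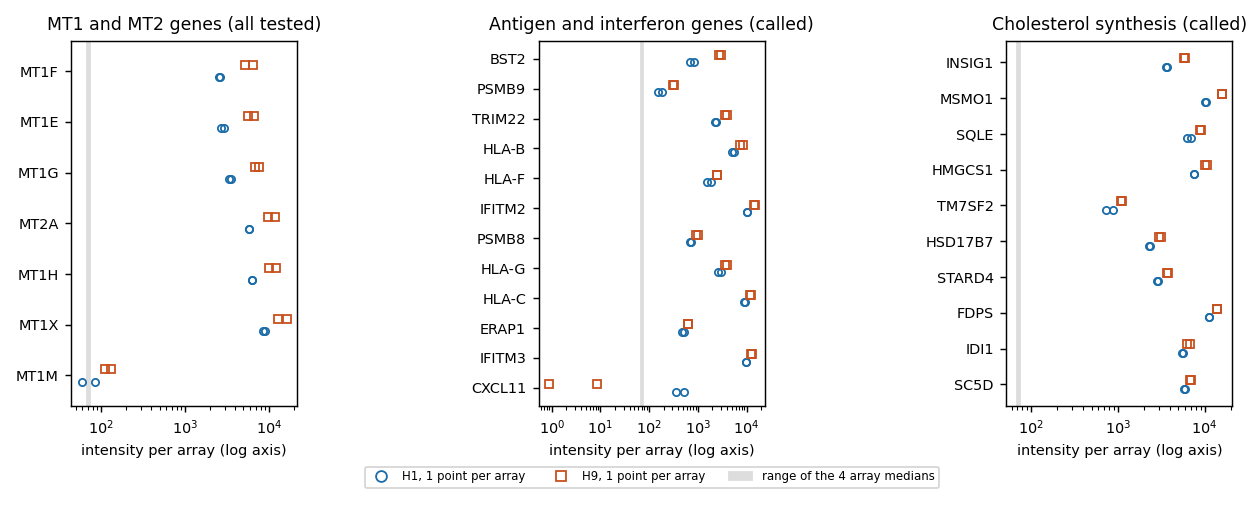
Intensity on each array (horizontal, log axis) of the tested MT1 and MT2 metallothioneins, and of the called members of the antigen presentation and interferon list and of the cholesterol synthesis list. Circles are H1 arrays, squares H9 arrays and the grey band the range of the 4 array medians, 68.7 to 74.7; the H9 squares lie to the right in every row but that of CXCL11.

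Detoxification and glutathione genes differed often and in both directions: 12 of 48 were higher and 13 lower in H9. Called members made up 52.1%, against 22.1% of all genes, and the median was -0.10. Beside CRYZ and CAT, the 13 lower members included GSTT2, a glutathione transferase, at 249.9 and 255 in H1 and 76.97 and 71.03 in H9 (-1.58 ± 0.19), the reductases AKR1C3 (-1.13 ± 0.12) and CBR1 (-0.69 ± 0.072), the oxidase gene CYP1B1 (-1.09 ± 0.13), GPX3, a secreted peroxidase (-0.54 ± 0.089), and GCLC, the catalytic subunit of glutathione synthesis (-0.43 ± 0.071). CYP26A1, which breaks down retinoic acid, was the largest difference toward H9, from 449.6 and 355 to 1510.3 and 1235 (1.73 ± 0.14, limma adjusted p = 5.94e-05). GSTA4 (0.60 ± 0.068), NQO1 (0.42 ± 0.080) and GCLM, the partner subunit of GCLC (0.55 ± 0.077), were higher. Higher calls were 7 without H1 replicate 1.

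Of 20 cholesterol synthesis genes tested, 10 were higher in H9, 0 were lower and 10 were not called, where 11.7% of all genes were higher. The median was 0.25. MSMO1, a late enzyme of the pathway, read 10036 and 10329 in H1 and 15938 and 15677 in H9 (0.63 ± 0.057, limma adjusted p = 8.45e-05). INSIG1, which holds the sterol sensor in the endoplasmic reticulum, read 3651 and 3635 against 5897 and 5745 (0.67 ± 0.061), HMGCS1 7628 and 7604 against 10241 and 10569 (0.45 ± 0.058), and SQLE, squalene epoxidase, 6226 and 6895 against 8908 and 8998 (0.45 ± 0.067). No H9 array overlapped an H1 array for these 4, as was so for 61.8% of all genes. Leaving out an array left 7 to 9 higher calls, and 12 were higher with centred arrays.

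Glycolysis and hypoxia genes were higher in 9 of 33 cases and lower in 0 (27.3% called, against 22.1% of all genes), with a median of 0.16. ENO2, an enolase, read 1123 and 1326 in H1 and 2157 and 1985 in H9 (0.75 ± 0.096), MXI1, which opposes MYC, 1039 and 1090.3 against 1771 and 1468 (0.59 ± 0.10), and ALDOC, an aldolase, 1835 and 1646 against 2641 and 2253 (0.49 ± 0.094). EGLN1, the oxygen-sensing hydroxylase, differed by 0.72 ± 0.13, but by 0.18 and without a call with the mean of its probe sets. H9 replicate 1 was above H9 replicate 2 for each of these 4 genes. The count of 9 fell to 5 without H1 replicate 2 or H9 replicate 1 and rose to 15 without H9 replicate 2.

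Of 40 genes of oxidative phosphorylation tested 4 were higher and 0 lower, 10% against 22.1% of all genes, with a median of 0.08. CYC1, cytochrome c1, was one (0.32 ± 0.059); the others, COX6C, UQCRC2 and SDHA, lost their calls with at least 1 array left out, and 1 or 2 higher calls were left in those fits. With centred arrays 9 were higher.

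Of 37 cell cycle genes tested 4 were higher and 4 lower, so 21.6% were called against 22.1% of all genes. CDK6, a kinase of the G1 phase, was the largest, from 1019 and 1002 in H1 to 459.9 and 526 in H9 (-1.02 ± 0.11, limma adjusted p = 2.14e-04), and was at -0.47 and not called with the mean of its probe sets. The other 7 calls were for differences between -0.42 and 0.31, and leaving out an array left 2 to 4 higher and 1 to 5 lower calls. Of 32 p53 targets and apoptosis genes 7 were higher and 2 lower (28.1% called, against 22.1% of all genes), with a median of 0.05. RRM2B, a nucleotide reductase subunit induced by p53, read 2954 and 3287 in H1 and 4583 and 4709 in H9 (0.57 ± 0.072), and the cell cycle inhibitor CDKN1A read 389 and 441 against 638 and 620.2 (0.58 ± 0.12). DDB2, of DNA repair (0.37 ± 0.070), and the death receptor gene TNFRSF10B (0.37 ± 0.064; 0.34 and not called with the mean of its probe sets) were higher too. The lower calls were CDKN2B, an inhibitor of CDK4 and CDK6 (-1.72 ± 0.38), the largest difference of the list, and SESN2, a stress-induced gene (-0.54 ± 0.13). The call of CDKN2B was lost without H1 replicate 1 (-1.49), and that of SESN2 without H1 replicate 2 (-0.43) or H9 replicate 1 (-0.47).

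The band 20q11.21 is often gained in stem cell culture, so its genes were listed. Of 16 tested 3 were higher and 1 lower in H9 (25% called, against 22.1% of all genes), with a median of 0.19 against 0.01. BCL2L1, the survival gene for which the gain is known, read 691 and 734 in H1 and 671 and 698 in H9 (-0.057) and was not called. CCM2L was the largest difference (0.59 ± 0.11; 0.20 and not called with the mean of its probe sets). Without H1 replicate 1 there was 1 higher call and with centred arrays there were 6. Copy number was not measured.

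DNA methylation and small RNA silencing genes were lower in 5 of 19 cases and higher in 1 (31.6% called, against 22.1% of all genes). UHRF1, which guides maintenance methylation, read 3881 and 3856 in H1 and 3028 and 3139 in H9 (-0.33 ± 0.064, limma adjusted p = 0.00645). The de novo methyltransferase DNMT3B read 24976 and 25382 against 21999 and 21061 (-0.23 ± 0.055), a call lost without H1 replicate 1 (-0.24), without H1 replicate 2 (-0.21) and without H9 replicate 2 (-0.19). With centred arrays 3 were higher and 3 lower, and the 5 lower calls became 2 without H1 replicate 1, 1 without H1 replicate 2 and 3 without H9 replicate 2.

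Zinc finger genes of chromosome 19, many of which repress transposons, were called in 34 of 195 cases, 17.4% against 22.1% of all genes, 18 higher and 16 lower. After ZNF681, the clearest were ZNF826P, from 428 and 441 in H1 to 1069.9 and 979.6 in H9 (1.21 ± 0.10), and ZNF677, from 1713 and 1589 to 3352 and 3101 (0.96 ± 0.076). Toward H1, ZNF578 read 169.9 and 128 in H1 and 31.3 and 16.8 in H9 (-2.06 ± 0.33), a gene named after its values were seen. Clustered protocadherins, cell surface proteins that neurons express in random combinations, were lower in 3 of 19 cases and higher in 0 (15.8% called). PCDHB5 read 2429 and 2329 against 1390 and 1546 (-0.69 ± 0.080), and the other 2 lost their calls when single arrays were left out.

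Some of the large differences were neighbours in the chromosome order of tested genes, with no limit set on the distance between them. Among the 329 genes called by at least 1, 34 were in 16 runs of neighbouring tested genes that differed in the same direction, 5 runs higher and 11 lower in H9. Of these runs 14 were pairs. CRYZ and TYW3 on chromosome 1 were the pair with the largest differences. On chromosome 7, CHCHD2, a mitochondrial protein gene, read 9994 and 9765 in H1 and 4369 and 4388 in H9 (-1.17 ± 0.059), ZNF680 followed, and ZNF107 read 1740.4 and 1704 against 643 and 633 (-1.41 ± 0.084; -0.33 and not called with the mean of its probe sets). Such neighbours can lie far apart, and genes that were not tested can lie between them. The probe sets of ZNF680 and ZNF107 can also bind related transcripts, so they may not be separate readings.

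The run of 3 on chromosome 6 held histone genes. H4C11 read 1490.2 and 1519.8 in H1 and 642 and 670.0 in H9 (-1.18 ± 0.087). The probe sets of H4C11 and H2AC14 can also bind related transcripts. H2AC14 and H2AC15 were dim in H9, at least 2.00-fold and 1.72-fold lower, with calls lost without H1 replicate 1 (-1.59 and -1.02) and, for single genes, without H9 replicate 1 (H2AC14, -1.56), H1 replicate 2 (H2AC15, -1.16) or H9 replicate 2 (H2AC15, -0.89). Pairs included MT1F with MT1G on chromosome 16, HLA-DRB1 with HLA-DQB1 on chromosome 6, COL3A1 with COL5A2 on chromosome 2 and FZD2 with MEIOC on chromosome 17. MEIOC, which acts in meiosis, read 417 and 394 in H1 and 969.9 and 936 in H9 (1.20 ± 0.10). ZNF718 and the pseudogene ZNF876P on chromosome 4 were lower (-1.19 ± 0.13 and -2.69 ± 0.44), as were TNC and PAPPA, a protease of growth factor binding proteins, on chromosome 9 (-1.27 ± 0.15 and -1.65 ± 0.17).

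No autosome was shifted as a whole. The median difference per chromosome lay between -0.01, on chromosome 17, and 0.04, on chromosome 9. The share of genes called ran from 16.5% on chromosome 19 to 29.9% on chromosome 18, where 38 of 197 tested genes were higher and 21 lower.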

How the data were processed

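The 8 arrays of the study are 2 each of undifferentiated cells and embryoid bodies of H1 and H9, and the 4 undifferentiated ones were used. The authors deposited 1 intensity per probe set and array on a linear scale, computed by MAS5 (version not given here), per the submitters' processing notes. Subtraction of mismatch probes in that method leaves low values noisy, and the trimmed mean of every array was 500.1, so arrays had been scaled to 1 target. Detection calls were not used here, and background is therefore unknown. The number of arrays limits the precision.

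Of 54675 probe sets, 41091 had 1 gene symbol, 1801 several and 11721 none, besides 62 controls; 41037 matched the RefSeq gene table by Entrez identifier and 0 symbols changed. For each gene the probe set brightest on average (log2 scale, 4 arrays) was kept, and the gene was tested when it was above the array median on at least 2 arrays. Values were transformed as log2(value + 16), so that folds of low genes are understated. H9 minus H1 was fitted with lmFit and eBayes, trend and robust switched on, in limma 3.58.1 under R 4.3.3 (2 residual degrees of freedom). P-values were adjusted by Benjamini-Hochberg over all 13272 genes tested on every chromosome, and autosomal genes are reported. The scripts were tested on simulated data.

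The comparison, gene lists and alternatives were chosen with earlier results of these data known, so lists are described by counts and medians without a test. Named genes were the 12 largest differences per direction among called genes whose lines do not overlap and which are above the array median on at least 1 array of each line, the 12 largest bounds per direction among called genes below the array median in 1 line and above it in the other, the 3 smallest p-values per list, SOX2, NANOG, and the runs of neighbours described; other list members were named after their values were seen. Probe sets whose names end in x_at or s_at can bind related transcripts, and whether sequence differences between the lines lie in a probe was not tested. Some named genes were read by such probe sets without mention beside them, LUM, COL3A1 and QPCT among them.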

Additional observations from a re-analysis of the deposited data

How the results depend on the processing

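Counts of calls varied most with how the spread was estimated and how a gene was read. With no filter on dim genes 942 were higher and 864 lower in H9, with probe sets averaged per gene 759 and 807, and with eBayes without trend and robust settings 545 and 594. Fitting all probe sets one by one gave 1890 higher and 1997 lower, and 64 called genes had a probe set called the opposite way. A minimum difference of 1 left 114 and 215. Leaving out each array in turn gave 870 to 1223 higher and 728 to 1267 lower; the lone array of a line was then assumed to vary like the other line. Counts stayed within 1.5 times of the reported ones with quantile normalization, arrays centred on their medians, added values of 1 and 64, a filter on the mean, without x_at and s_at probe sets, and with the spread taken from all 8 arrays, which include 2 that went against their labels. The replicate block gave 1262 higher and 1127 lower. Same-numbered deviations correlated at -0.085 over 13272 genes between H1 and H9. With 2 arrays per line this cannot show whether same-numbered arrays were prepared together, which the labels do not say. Of 114 named genes that were called, 19 lost the call with plain eBayes, 14 of 101 with the mean of all probe sets, 7 with no filter, 3 of 89, a reversed one included, without x_at and s_at probe sets and 7 to 13 with 1 array left out. The reversed results were MBD4, a repair gene, which went from -0.31 to 0.19 without x_at and s_at probe sets, and SOX2, not called in either, which was at 0.0085 with the mean of its probe sets. Of 288 called members of the lists and families 182 were called with each array left out in turn. Causes were not tested. Genes below the array median carry only a bound.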

Other observations

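Gene families outside the lists were looked at after their values were seen, and are given as values. Core and linker histone genes, which package DNA, were mostly lower in H9: of 27 tested 15 were lower and 1 higher, with a median of -0.71, against 10.3% and 11.7% of all genes. H2AC6 read 1444 and 1670.4 in H1 and 329 and 256 in H9 (log2 difference -2.36 ± 0.14), H2AC25 1086 and 1126 against 428 and 459 (-1.29 ± 0.10), H2BC12 1282 and 1549 against 616 and 645 (-1.14 ± 0.11) and the linker histone H1-2 338 and 380.3 against 187 and 163 (-0.97 ± 0.15). The variant H2AZ1 read 22377 and 23002 against 22843 and 21866 and was not called. Probe sets of several lower members, H2AC6 and H4C11 among them, can bind related transcripts, so the 15 may not be separate readings. Leaving out each array in turn left 10 to 13 lower calls. In the cell cycle list, beside them, 4 of 37 genes were higher and 4 lower.

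Genes of HLA class II, which present antigen on immune cells, did not move together: of 10 tested 3 were higher and 1 lower. Over all genes 11.7% were higher and 10.3% lower, shares to set beside the counts of each family in this paragraph. HLA-DRB1 read 411 and 445 in H1 and 1253 and 1047 in H9 (1.39 ± 0.12), and HLA-DQB1 158 and 175 against 857 and 734, while the pseudogene HLA-DPB2 read 4168 and 4354 against 1752 and 1556 (-1.36 ± 0.077) and HLA-DRA, which encodes the partner chain of HLA-DRB1, 132 and 186 against 108 and 145, not called. Of 5 DLX and HOX homeobox genes tested 4 were lower, DLX1 (-1.61 ± 0.43), DLX2 (-2.03 ± 0.43), HOXB2 (-1.04 ± 0.32) and HOXB9 (-0.83 ± 0.26), from H1 intensities of at most 137; the fits that leave out an array called 0 to 3 of them, 0 without H1 replicate 1, 1 without H1 replicate 2 or H9 replicate 1 and 3 without H9 replicate 2.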
